A study of Mus musculus with 29 samples.

Results

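The effect of trauma was followed in the amygdala of Sus-T mice, in 4 libraries of Sus-T mice with trauma against 2 of Sus-T mice without trauma, over all 9872 genes of the deposited table. These 6 libraries were chosen by their labels, and they are 6 of the 26 libraries with deposited values, from 29 labelled samples. All mice carried the Thy1-YFP transgene of the mouse line B6.Cg-Tg(Thy1-YFP)HJrs/J, in which a Thy1 promoter drives a yellow fluorescent protein in a subset of projection neurons. Cells labelled as pyramidal neurons were sorted from dissociated amygdala punches by flow cytometry, and RNA-seq libraries were made with a kit for ultra-low input. The labels name each mouse Sus-T or Res-T and give its condition as with or without trauma, without spelling out the abbreviations or describing the trauma, and ages were not given in the sources used here. For comparison there were 4 libraries of Res-T amygdala with trauma and 3 of Res-T amygdala without trauma, and 4 libraries of Sus-T prefrontal cortex with trauma and 2 without. Replicate 2 of Sus-T without trauma was removed by the submitters in both regions and was not used here, which leaves replicates 1 and 3. The design text speaks of 9 mice for the amygdala against 13 amygdala libraries, so some libraries may share an animal, and the p-values measure only the spread between libraries.

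The amygdala stores and expresses learned fear, and its projection neurons receive excitatory input through glutamate receptors that are held in place by postsynaptic scaffold proteins. Their axons are wrapped by oligodendrocytes, whose membrane sheath, myelin, is built from a small set of very abundant proteins and from galactolipids and cholesterol. Strong experience can change the activity-dependent genes of neurons, the stress hormone receptors of many cell types and the formation of new myelin.

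The deposited values are a normalized signal in arbitrary units and were not divided by gene length here. Their totals were 4021272, 3473151, 3356421 and 3456604 in Sus-T with trauma, against 3267967 and 3440617 in Sus-T without trauma. Across all 13 amygdala libraries the first principal component held 31.8% of the variance and ordered the groups, with the Sus-T libraries with trauma between −21.66 and −14.25, those without trauma at −52.34 and −44.3, the Res-T libraries with trauma between 2.073 and 9.655 and those without trauma between 48.53 and 51.32. On the second component, with 17.2%, replicate 2 of Sus-T with trauma stood apart at −58.92 and replicate 1 of Sus-T without trauma at 44.67. The 2 libraries of Sus-T without trauma thus differed between themselves.

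The promoters of 3 oligodendrocyte markers are shown for the letters around their starts. Of these, Opalin was named after its values were seen. Each run covers 250 bases before and 50 bases after the annotated start, from RefSeq on GRCm38.p6, on the minus strand. Capitals mark ACAAAG or, on the other strand, CTTTGT, a core form of the sites bound by SOX-family factors, to which the oligodendrocyte regulator Sox10 belongs. Apod lies at chr16:31314759-31315058, Opalin at chr19:41077064-41077363 and Mal at chr2:127656646-127656945.
Apod: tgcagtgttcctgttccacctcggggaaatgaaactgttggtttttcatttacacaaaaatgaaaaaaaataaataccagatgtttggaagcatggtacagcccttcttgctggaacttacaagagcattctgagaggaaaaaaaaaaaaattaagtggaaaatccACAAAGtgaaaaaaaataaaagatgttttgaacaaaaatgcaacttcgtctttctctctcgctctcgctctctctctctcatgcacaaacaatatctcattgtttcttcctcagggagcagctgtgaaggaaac
Opalin: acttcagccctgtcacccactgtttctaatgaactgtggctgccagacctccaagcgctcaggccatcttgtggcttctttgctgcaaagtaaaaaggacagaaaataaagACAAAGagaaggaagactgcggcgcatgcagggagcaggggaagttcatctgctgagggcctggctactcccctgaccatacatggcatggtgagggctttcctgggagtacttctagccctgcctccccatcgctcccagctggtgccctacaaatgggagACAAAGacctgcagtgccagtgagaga
Mal: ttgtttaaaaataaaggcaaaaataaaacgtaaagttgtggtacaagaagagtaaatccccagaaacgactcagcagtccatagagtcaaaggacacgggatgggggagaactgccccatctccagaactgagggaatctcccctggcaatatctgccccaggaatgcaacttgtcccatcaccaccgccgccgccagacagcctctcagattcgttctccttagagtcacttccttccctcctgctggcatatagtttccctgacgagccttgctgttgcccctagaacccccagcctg
Apod held 1 match, Opalin 2 and Mal 0. Of 16 measured oligodendrocyte markers with a promoter entry 6 held a match, or 37.5%, against 16.109% of the 7716 genes of the amygdala table with an entry and 21.018% of all 27025 promoters. A match is a string of letters and was not tested as a binding site.

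With trauma, myelin and oligodendrocyte genes stood higher in Sus-T amygdala, and single genes seldom passed the test. Across all genes limma called 3 of 9872, or 0.0304%, with 2 of them (0.0203%) higher and 1 (0.0101%) lower with trauma (adjusted p under 0.05 by the method of Benjamini and Hochberg). At an unadjusted p under 0.05, 869 genes were higher, or 8.8%, and 299 were lower, or 3.03%, and with the libraries scaled to the same total 659 were higher and 489 lower. The count of calls was 1 without replicate 1 of Sus-T without trauma and 287 without replicate 3. All 4 libraries with trauma lay above both libraries without trauma for 1246 genes, or 12.6%, and below both for 767, or 7.77%. The median log2 difference of all genes was −0.0058.

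Apod was one of the 2 genes that rose. It encodes apolipoprotein D, a small carrier of lipids that oligodendrocytes secrete, and spans chr16:31296192-31314808 on the minus strand. Its normalized values were 2523, 1792, 1658 and 1427 in Sus-T with trauma, against 521 and 890 in Sus-T without trauma. The groups did not overlap. The difference was 2.65-fold (log2 1.41 ± 0.24 SE, limma adjusted p = 0.0465). The call ended without replicate 1, 2 or 3 of Sus-T with trauma (adjusted p = 0.110, 0.104 and 0.0551) and without replicate 1 of Sus-T without trauma, where the log2 difference was 1.02 (adjusted p = 0.998), while without replicate 3 of Sus-T without trauma it was 1.79 (adjusted p = 0.00216). It also ended in a fit on the 2 Sus-T groups alone (adjusted p = 0.317), in a fit without the Res-T group without trauma (adjusted p = 0.156) and with moderation that used neither a trend nor robust weights (adjusted p = 0.172).

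The other rise and the only fall belonged to gene models that overlap others on the same strand, so their values are uncertain. Zc3h11a, a zinc finger protein of RNA export, has a pair of nearly identical models on the minus strand of chromosome 1. The model ENSMUSG00000116275.1 (chr1:133619871-133661380) had 306, 190, 198 and 250 in Sus-T with trauma, against 2.22 and 1.82 in Sus-T without trauma (log2 6.27 ± 0.29, adjusted p = 5.4e-10). Its values in Sus-T without trauma were near the lowest value of the table, 1.35. The model ENSMUSG00000102976.6 (chr1:133619862-133661380) had 113, 310, 260 and 242 with trauma, against 500 and 358 without. Their sums were 419, 500, 458 and 492 with trauma and 502 and 359 without, and these overlapped. A quantifier may divide reads between such models, and whether it did was not tested.

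Gm28635 fell. This predicted gene at chr2:84601439-84678041, on the minus strand, overlaps Ctnnd1, Selenoh and Tmx2 on the same strand and is named here because it was the only gene called lower. It had 1.94, 1.83, 2.10 and 2.16 in Sus-T with trauma, against 229 and 99.4 in Sus-T without trauma (log2 −5.66 ± 0.63, adjusted p = 0.000321). The values with trauma were near the lowest value of the table, 1.35. In Res-T amygdala it had 1.79, 2.04, 2.09 and 2.11 with trauma, against 246, 48.7 and 55.5 without, so that all 8 libraries with trauma of both phenotypes lay below all 5 without. Summed with Ctnnd1, the catenin that stabilizes cadherins, it had 578, 840, 696 and 666 with trauma and 604 and 717 without trauma in Sus-T, which overlapped. The sum with Tmx2 overlapped too. The sum with Selenoh did not, at 32.2, 23.0, 28.8 and 22.8 with trauma and 245 and 124 without. With a pseudocount of 10 in place of 1 the log2 difference was 4.33 for the Zc3h11a model and −3.75 for Gm28635, and both were still called. The Gm28635 call ended without replicate 1 of Sus-T without trauma (adjusted p = 0.0554) and with the mean of the oligodendrocyte markers as a covariate (log2 −4.75, adjusted p = 0.820). The covariate did not overlap between the Sus-T groups, so the fit with it separates covariate and trauma poorly. No other gene was at most 3 in every library of 1 Sus-T group and at least 20 in every library of the other.

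Oligodendrocyte markers were higher with trauma in Sus-T as a list. Of 27 listed markers 24 were among the genes of the table. All 24 had a positive log2 difference, from 0.34 to 1.41 with a median of 1.11. Beside Apod, which passed, 20 further markers had an unadjusted p under 0.05, which makes 21 of 24 against 8.8% of all genes, and 23 of 24 had groups that did not overlap, against 12.6%. Markers beyond Apod, Mbp, Mal and Fa2h were named after their values were seen. None of the following genes passed at an adjusted p under 0.05, and their values are given as a description.

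Among the structural proteins of myelin, Mal, a proteolipid that sorts myelin membrane, had 9351, 9763, 7986 and 7885 with trauma, against 2849 and 4606 without (2.40-fold, adjusted p = 0.0517). Each library with trauma was above each library without. Mbp, which holds the cytoplasmic faces of myelin together, had 47376, 25609, 21204 and 25988 with trauma, against 17761 and 21497 without (log2 0.55 ± 0.27, adjusted p = 0.438). It was the 1 marker whose groups overlapped, since replicate 3 with trauma lay below replicate 3 without. Mobp, a small basic protein of myelin, had 23738, 9968, 10941 and 12857 with trauma, against 9025 and 9045 without (log2 0.58, adjusted p = 0.438).

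Proteins of the myelin surface and its junctions had differences around 2-fold. Mog, a glycoprotein of the outermost sheath, had 1780, 2225, 1751 and 1289 with trauma, against 521 and 898 without (2.53-fold). Mag, an adhesion molecule that faces the axon, had 3501, 4133, 3527 and 2490 with trauma, against 1078 and 2286 without (2.14-fold). Opalin, a membrane glycoprotein of oligodendrocytes, had 613, 863, 653 and 468 with trauma, against 218 and 348 without (2.30-fold). Cldn11, the claudin of myelin tight junctions, stood at 2.08-fold and Gjc3, a connexin, at 2.25-fold (adjusted p = 0.0657 and 0.0517). Tspan2, a tetraspanin, stood at 2.22-fold, and Cnp, an enzyme that keeps myelin channels open, at 2.17-fold. Ermn, which links the membrane to the cytoskeleton, stood at 2.37-fold.

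Enzymes, carriers and regulators of the lineage had differences of the same sign. Fa2h and Ugt8a, the hydroxylase and the transferase of galactolipid synthesis, stood at 1.88-fold and 1.87-fold. Aspa, which frees acetate from N-acetylaspartate, stood at 2.38-fold, Trf, the iron carrier transferrin, at 2.04-fold, and Enpp2, an enzyme that makes lysophosphatidic acid, at 2.02-fold. Of the transcription factors, Myrf had 1538, 2815, 1824 and 1652 with trauma, against 593 and 1269 without, and Sox10 had 630, 1576, 822 and 790 with trauma, against 222 and 556 without. Of the markers other than Mbp and Mobp, the smallest differences were those of Car2, a carbonic anhydrase (1.27-fold), Qdpr, a pteridine reductase (1.54-fold), Gsn, an actin-severing protein (1.69-fold), and Ppp1r14a, a phosphatase inhibitor (1.71-fold). Among 9 measured markers of oligodendrocyte precursors, Enpp6, which marks newly forming oligodendrocytes, had 527, 486, 318 and 388 with trauma, against 93.9 and 231 without (2.85-fold, adjusted p = 0.0587). The precursor list as a whole had a median of −0.12, with 4 members positive and 5 negative.

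**Figure D1:**
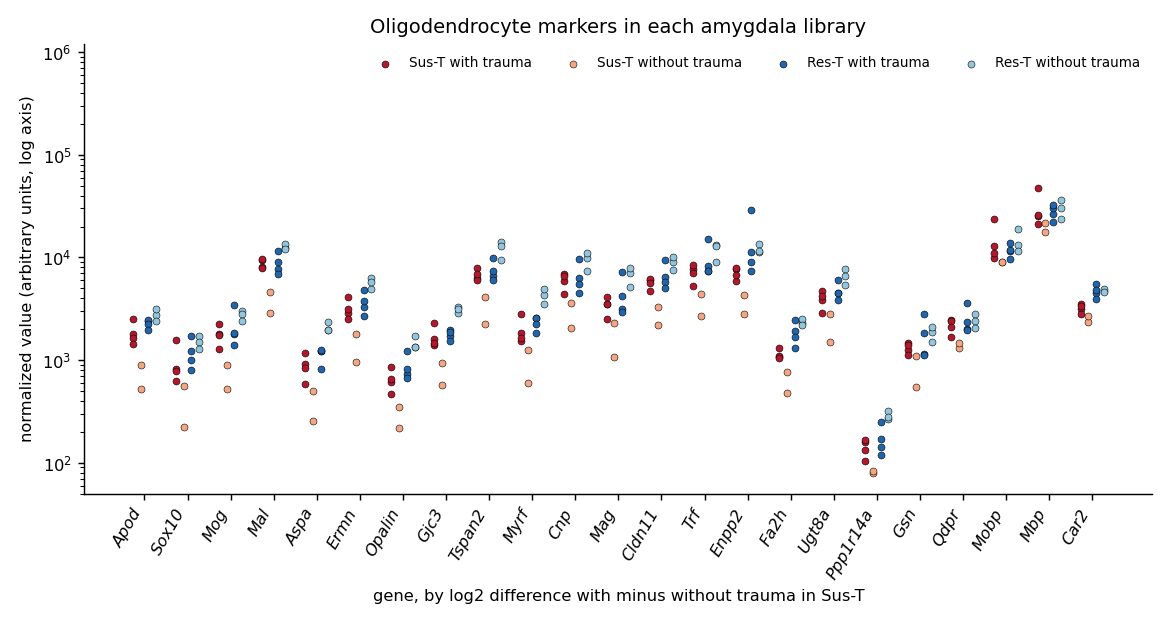
Normalized values of 23 of the 24 measured oligodendrocyte markers in each amygdala library, on a logarithmic y axis, in the order of the log2 difference in Sus-T, with 1 point per library and 1 colour per group. For every gene the library of Sus-T without trauma with the lowest value lies below all 4 libraries of Sus-T with trauma, and for Apod the groups span 1427 to 2523 with trauma and 521 to 890 without.

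The summed oligodendrocyte markers made up 5.93%, 5.29%, 4.59% and 4.90% of the library in Sus-T with trauma, against 2.25% and 3.34% in Sus-T without trauma. The means were 5.18% ± 0.58 (SD, n = 4) with trauma and 2.79% ± 0.77 (SD, n = 2) without. Replicate 1 without trauma was the lowest of the 6 libraries in 24 of 24 markers, and replicate 3 lay between it and the lowest library with trauma in 23. Of all genes replicate 1 was the lowest in 2489, and of the 869 genes higher with trauma at an unadjusted p under 0.05 in 764. Without replicate 1, 10 markers kept an unadjusted p under 0.05 and the median was 0.71, taking the lone library to vary as the other groups do. Without replicate 3 the median was 1.52, and 287 genes were called (272 higher and 15 lower), 17 of the markers among them. In these bulk libraries, more oligodendrocyte RNA per cell and more oligodendrocyte material in the sorted sample cannot be told apart.

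Other genes close to the threshold were also higher with trauma and are not in the marker list. Ypel2 had 708, 861, 669 and 785 with trauma, against 230 and 427 without (2.40-fold, adjusted p = 0.0517). Trim59, a ubiquitin ligase of the TRIM family, had 893, 1183, 772 and 892 with trauma, against 339 and 431 without (2.41-fold, adjusted p = 0.0517). Enpp4, a nucleotide pyrophosphatase at the cell surface, had 867, 796, 568 and 598 with trauma, against 202 and 352 without (2.60-fold, adjusted p = 0.0517). Ccp110, a protein that caps centrioles, had 2459, 2655, 2041 and 2431 with trauma, against 973 and 1458 without (2-fold, log2 1.0 ± 0.19, adjusted p = 0.0517). In all of these every library with trauma lay above both without, as it did for 12.6% of all genes. Efnb3, a membrane-bound ephrin ligand, had 973, 1364, 1202 and 682 with trauma, against 205 and 530 without (3.09-fold, adjusted p = 0.0518), and it passed without replicate 4 with trauma. Unc5c, a netrin receptor, had 775, 823, 598 and 610 with trauma, against 245 and 416 without (2.17-fold, adjusted p = 0.0518). It belongs to 52 measured genes of axon guidance and adhesion, 9 of which were higher and 3 lower at an unadjusted p under 0.05 (median −0.01). Of all genes 8.8% were higher and 3.03% lower at that p. Kat2b, a histone acetyltransferase, had 734, 597, 427 and 470 with trauma, against 124 and 309 without (2.77-fold, adjusted p = 0.0586). With the mean of the oligodendrocyte markers as a covariate the log2 difference was 1.35 for Trim59, 0.74 for Enpp4, 0.65 for Ccp110, 0.49 for Ypel2, 0.47 for Unc5c, 0.15 for Efnb3 and −0.10 for Kat2b. That log2 mean was 11.43 to 11.77 in Sus-T with trauma, against 10.23 and 10.94 without. The groups do not overlap in it, so a fit with it separates covariate and trauma poorly. Without replicate 3 of Sus-T without trauma each of these 7 genes passed.

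After the Zc3h11a model, the largest rises by fold, among genes with a mean of at least 50 over the 6 libraries and groups that did not overlap, had their lowest value in replicate 1 without trauma. Srp54b, a copy of the signal recognition particle gene, had 405, 364, 193 and 158 with trauma, against 4.42 and 118 without (log2 3.35 ± 0.97, adjusted p = 0.157). Sec14l5 had 471, 1622, 412 and 320 with trauma, against 22.2 and 191 without (log2 3.08, adjusted p = 0.0906). Taf7, a subunit of the general transcription factor TFIID, had 235, 207, 70.6 and 86.7 with trauma, against 4.26 and 47.2 without (log2 3.06, adjusted p = 0.0803). Rffl, a ubiquitin ligase, had 10.8 and 139 without trauma (log2 3.02, adjusted p = 0.112). In each of these 4 genes the fold between the libraries without trauma exceeded the fold from the higher of them to the lowest library with trauma. Srp54b has near-identical copies in the genome, so its value is uncertain. With the oligodendrocyte mean as a covariate the log2 differences of Srp54b, Sec14l5, Taf7 and Rffl were −0.59, −0.26, 0.18 and −0.58.

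Among genes lower with trauma none but Gm28635 passed. Madd, a regulator of vesicle release and of MAP kinase signalling, had 252, 202, 219 and 212 with trauma, against 385 and 431 without (1.84-fold lower, log2 −0.88 ± 0.22, adjusted p = 0.0906). Pcnt, a scaffold of the centrosome, had 235, 251, 211 and 275 with trauma, against 494 and 353 without (adjusted p = 0.108). Snap91, a clathrin assembly protein of synaptic vesicle recycling, had 497, 500, 514 and 558 with trauma, against 843 and 797 without (1.58-fold lower, adjusted p = 0.109). In these 3 genes every library with trauma lay below both without, as it did for 7.77% of all genes. Mef2c, a transcription factor that neuronal activity controls, had 386, 370, 491 and 554 with trauma, against 963 and 913 without (2.11-fold lower, log2 −1.08 ± 0.30, adjusted p = 0.119). The libraries without trauma were close to each other for Mef2c. Rnf217, a ubiquitin ligase, had 178, 109, 115 and 89 with trauma, against 255 and 268 without (adjusted p = 0.121). Mrc2, a collagen receptor, had 1.97, 7.13, 15.8 and 11.3 with trauma, against 68 and 31.4 without (log2 −2.49 ± 0.68, adjusted p = 0.119), at low values. By fold, the lowest differences after Gm28635 at a mean of 50 or more and with groups that did not overlap belonged to Nes, the filament protein nestin (log2 −1.99), Cox10, of haem A synthesis (−1.71), Dck, a nucleoside kinase (−1.57), Myo1c, a membrane-linked myosin (−1.56), and Tubb6, a tubulin (−1.47), with adjusted p between 0.155 and 0.447. For Nes the libraries had 18.1, 66.9, 49.8 and 31.9 with trauma, against 291 and 78.8 without.

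Most measured genes of the postsynaptic density and of GABA receptors had negative differences with trauma, and no member of the synaptic lists passed. Of 24 measured genes of the postsynaptic density 22 were negative, with a median log2 difference of −0.32, and 2 were lower at an unadjusted p under 0.05, against 3.03% of all genes. Between 17 and 23 were negative when 1 of the 6 libraries was left out. Dlgap1, a scaffold beneath glutamate receptors, had 905, 637, 678 and 600 with trauma, against 826 and 1330 without (log2 −0.59 ± 0.23, adjusted p = 0.321). All 8 measured GABA receptor genes, which carry inhibition, were negative, with a median of −0.35 and none at an unadjusted p under 0.05. With 1 of the 6 libraries left out between 6 and 8 were negative, and the median was −0.15 without replicate 2 of Sus-T with trauma and −0.18 without replicate 3 of Sus-T without trauma. Gabbr2, a subunit of the GABA-B receptor, had 432, 411, 446 and 316 with trauma, against 418 and 676 without. Of 16 sodium, calcium and HCN channel genes 11 were negative (median −0.31), led by Scn8a, a sodium channel of the axon initial segment, with 459, 344, 510 and 365 with trauma, against 638 and 595 without (log2 −0.57, adjusted p = 0.283). The 22 active zone and vesicle genes had a median of −0.13, with 2 higher and 3 lower at an unadjusted p under 0.05. The shares of all genes were 8.8% higher and 3.03% lower. Bsn, a scaffold of the active zone, had 1328, 580, 1181 and 530 with trauma, against 1034 and 1729 without (adjusted p = 0.50), and its groups overlapped. Of 16 ionotropic glutamate receptor genes 10 were negative (median −0.23), although Gria4, an AMPA receptor subunit, stood at 445, 410, 326 and 340 with trauma, against 210 and 216 without (1.77-fold, adjusted p = 0.130). Grin2b, an NMDA receptor subunit, had 753, 398, 1574 and 441 with trauma, against 707 and 613 without (log2 0.04, adjusted p = 0.988). Camk2a, a kinase that calcium activates at excitatory synapses, had 3974, 1138, 2306 and 762 with trauma, against 1656 and 2965 without (log2 −0.40, adjusted p = 0.852), and spread more within the group with trauma than between groups.

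Of the other receptor and channel lists, 4 metabotropic glutamate receptor genes had a median of 0.04, with Grm4 at 55, 10.4, 21.9 and 10.7 with trauma, against 50.3 and 55.2 without. The 20 potassium channel genes had a median of −0.06, with Kcna6, a delayed rectifier, at 1.41-fold (adjusted p = 0.257). Chrna4, a nicotinic receptor subunit and the only measured gene of 28 listed monoamine and acetylcholine receptors, had 15.8, 19.2, 44.3 and 15.6 with trauma, against 24.7 and 41.2 without. In the endocannabinoid list of 10 genes the median was −0.32. Dagla, which makes the endocannabinoid 2-AG, had 134, 104, 145 and 62.7 with trauma, against 202 and 232 without (2.03-fold lower, adjusted p = 0.269), and Mgll, which breaks it down, had 434, 338, 332 and 383 with trauma, against 390 and 590 without (adjusted p = 0.561). The groups did not overlap for Dagla, as for 7.77% of all genes in that direction, and overlapped for Mgll.

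Genes of neuronal activity and of the stress hormone response gave no call. Of 13 activity-regulated genes 1 was lower at an unadjusted p under 0.05, against 3.03% of all genes. This was Ier5, an early response gene, with 153, 100, 180 and 93.8 with trauma, against 208 and 207 without (log2 −0.70, adjusted p = 0.410). Arc, an early gene of synaptic plasticity, had 707, 591, 661 and 590 with trauma, against 1058 and 739 without (log2 −0.48 ± 0.29, adjusted p = 0.558). Fos, Egr1, Nr4a1 and Bdnf were not among the genes of the table. Nr3c1, the glucocorticoid receptor, had 1201, 1219, 971 and 990 with trauma, against 785 and 943 without (log2 0.34 ± 0.18, adjusted p = 0.489). Fkbp5, a cochaperone of that receptor and one of its targets, had 71.3, 69.7, 103 and 92.6 with trauma, against 135 and 216 without (log2 −1.03 ± 0.59, adjusted p = 0.527). In all 3 of these genes the groups did not overlap, with Arc and Fkbp5 lower and Nr3c1 higher with trauma. Among the 13 activity-regulated genes 1 lay wholly higher and 2 wholly lower, and among the 10 stress genes 1 and 1. Of all genes 12.6% lay wholly higher and 7.77% wholly lower. The 10 genes of glucocorticoid and stress signalling had a median of 0.24 with none at an unadjusted p under 0.05. Neurotrophin, cAMP and CREB genes had 2 of 29 higher, 2 lower and a median of −0.02, beside 8.8% and 3.03% of all genes.

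The lists of protein synthesis and energy genes had medians slightly below that of all genes, −0.0058, and most members of each were negative. The 68 cytosolic ribosomal protein genes had a median log2 difference of −0.09, with 49 negative. With the libraries scaled to the same total 58 were negative and their median was −0.18, beside −0.09 over all genes. Of these genes 1, Rps3, was higher at an unadjusted p under 0.05, against 8.8% of all genes. It had 3849, 5723, 6791 and 2632 with trauma, against 2385 and 2926 without. Without replicate 3 of Sus-T with trauma the median of the list was 0.10, and without replicate 3 of Sus-T without trauma 0.02. The 68 nuclear genes of oxidative phosphorylation had a median of −0.06, with 40 negative. Among them Ndufv2, a subunit of complex I, had 235, 189, 151 and 188 with trauma, against 339 and 280 without (1.63-fold lower, adjusted p = 0.267). The 35 genes of glycolysis and the citric acid cycle had −0.09, with 26 negative, and the 44 translation factors −0.09, with 31 negative. The 45 proteasome and ubiquitin genes had −0.08, with 26 negative. For mt-Nd6, 1 of 2 measured mitochondrially encoded genes, the log2 difference was −0.19. Rptor, the scaffold of the mTORC1 kinase complex, had 298, 462, 443 and 423 with trauma, against 614 and 643 without (1.57-fold lower, adjusted p = 0.163). Of 35 genes of cholesterol and lipid synthesis 8 were higher and 1 lower at an unadjusted p under 0.05 (median 0.10). Of all genes 8.8% were higher and 3.03% lower. The member of that list with the smallest p, Fa2h, is itself an oligodendrocyte marker. Npc1, which moves cholesterol out of lysosomes, stood at 1.58-fold. In its list of 39 autophagy and lysosome genes 4 were higher and 0 lower (median 0.03), beside the same shares of all genes.

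No list but that of oligodendrocyte markers held a call in limma. At an unadjusted p under 0.05, the measure of the counts below, 8.8% of all genes were higher and 3.03% lower. Of actin and spine genes 2 of 48 were higher and 4 lower at an unadjusted p under 0.05, of microtubule and axon transport genes 1 and 3 of 37, with Stmn4, a stathmin, at 1.63-fold. Chromatin regulators had 4 and 2 of 66, splicing and RNA-binding genes 3 and 2 of 56, with Srsf2, a splicing factor, at 1.52-fold. Of heat shock and dissociation stress genes 1 of 23 was higher, Pdia4, a folding enzyme of the endoplasmic reticulum (1.94-fold), and of oxidative stress genes 1 of 29, Gss, of glutathione synthesis (2.30-fold). Innate immune and interferon genes had 2 of 15 higher, circadian genes 1 of 19, Cry1, a clock repressor (1.98-fold), DNA damage genes 1 of 21, Atr, a checkpoint kinase (1.94-fold), and ubiquitin and proteasome genes 1 of 45, Psmc2, a proteasome ATPase (1.45-fold). Of 4 sex-linked genes 1 was higher, Ddx3y, a helicase gene of the Y chromosome (1.65-fold, adjusted p = 0.139). Snhg11, the only measured gene of the long noncoding list, had 402, 341, 1086 and 288 with trauma, against 549 and 257 without. Some of these genes share their span with another model. Trf overlaps Gm20425 and Ddx3y overlaps Gm4017 on the same strand, and Cnp, Rffl, Npc1 and Srsf2 overlap genes on the other strand, and since the use of strand was not given in the sources used here, their values are uncertain.

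Markers of the labelled cell type were few. Of 21 pyramidal neuron markers 8 were among the genes of the table, and Slc17a7, Neurod6, Tbr1 and Thy1 were not among them. The 8 made up 0.289%, 0.114%, 0.189% and 0.115% of the library in Sus-T with trauma, against 0.183% and 0.209% in Sus-T without trauma, and 7 of the 8 were negative (median −0.17). Cux2, an upper-layer transcription factor, had 172, 304, 255 and 337 with trauma, against 394 and 362 without (log2 −0.54, adjusted p = 0.387). The 5 general neuron markers had 0.190%, 0.145%, 0.144% and 0.172% with trauma, against 0.187% and 0.219% without, and 4 were negative, the exception being Elavl3, a neuronal RNA-binding protein (log2 0.22). Genes of other cell types were present in all libraries of cells sorted as pyramidal neurons. Their part in the results was not tested.

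The medians of the astrocyte and microglia markers in the same contrast changed with the libraries used. The 23 astrocyte markers made up 3.01%, 2.0%, 3.0% and 1.64% with trauma, against 2.16% and 3.65% without, with overlapping groups, 16 negative members and a median of −0.06. Their median was 0.36 without replicate 3 of Sus-T without trauma, 0.09 without replicate 4 of Sus-T with trauma and −0.55 without replicate 1 of Sus-T without trauma. Aqp4, the water channel of astrocyte endfeet, had 1634, 717, 1276 and 652 with trauma, against 1101 and 1666 without. All 5 measured microglia markers of 24 listed were negative (median −0.40, and between −0.73 and −0.06 with 1 library left out). Their shares were 0.0127%, 0.0382%, 0.0439% and 0.0257% with trauma, against 0.0337% and 0.0428% without. Among them Laptm5, a lysosomal protein, had 169, 144, 342 and 226 with trauma, against 301 and 367 without. Of 10 endothelial and mural markers 1 was higher and 2 lower at an unadjusted p under 0.05, against 8.8% and 3.03% of all genes. Kdr, a receptor of vascular growth factor, had 57.3, 60.8, 52.8 and 19.3 with trauma, against 4.38 and 20.2 without. The 6 GABAergic interneuron markers had a median of 0.06, with Dlx1 at log2 −0.84, the 4 striatal and central amygdala markers 0.42, with Pde10a, a striatal phosphodiesterase, at log2 1.01 (adjusted p = 0.507), and the 2 ependymal and blood markers 0.17, with Foxj1 at log2 0.59.

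**Figure D2:**
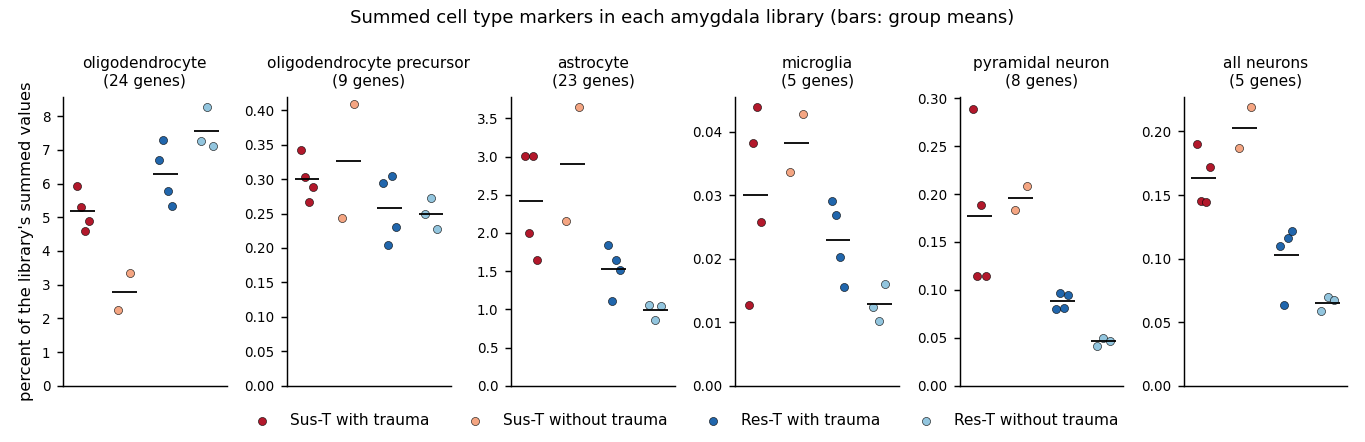
Summed markers of 6 cell types as a percent of all summed values of the library, on a linear y axis that starts at 0 in each panel, with 1 point per amygdala library and a bar at the group mean. Oligodendrocyte markers stood at 4.59% to 5.93% in Sus-T with trauma, above the 2.25% and 3.34% of Sus-T without trauma, while the astrocyte panel shows overlapping Sus-T groups.

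In Res-T amygdala the contrast had a negative median over the oligodendrocyte markers, and the difference between the phenotypes passed the test for most of them. The markers made up 6.28% ± 0.88 of the library in Res-T with trauma (SD, n = 4) and 7.55% ± 0.63 in Res-T without trauma (SD, n = 3). Their median log2 difference was −0.47 in Res-T, where 0 rose and 3 of 24 fell, against 3.3% of all genes higher and 2.88% lower. The trauma effect in Sus-T minus that in Res-T had a median of 1.68 over the markers and was called higher for 18 of 24, against 4.76% of all genes, and lower for 0, against 1.98%. Without replicate 1 of Sus-T without trauma it was called for 2 of 24, and without any other 1 library for 13 to 19. Over all genes the test called 665 for this difference, or 6.74%, with 470 higher and 195 lower. The split was 344 and 251 after quantile normalization and 294 and 443 with the libraries scaled to the same total. For trauma in Res-T 610 genes were called, or 6.18%, with 326 higher and 284 lower, against 354 and 146 after quantile normalization and 588 and 151 with the same total. Mal had 9039, 11588, 7780 and 6906 in Res-T with trauma, against 12323, 13425 and 12189 in Res-T without trauma, and the 2 Sus-T libraries without trauma, at 2849 and 4606, were the lowest of the 13. The difference of the effects was log2 1.69 ± 0.31 for Apod (adjusted p = 0.00594) and 1.81 ± 0.29 for Mal (adjusted p = 0.00334). Mbp and Mobp had 0.66 and 0.88 and did not pass (adjusted p = 0.280 and 0.168).

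Further genes named above, which did not pass in Sus-T, had effects that differed from those in Res-T. Snap91 and Dlgap1 were named for small p in the Sus-T contrast, as was Mef2c, which was also preselected. That contrast is part of the difference, so such a choice favours a pass. Ccp110, Bsn and Camk2a were preselected. Ccp110 had 3143, 2425, 2656 and 2847 in Res-T with trauma, against 6086, 5422 and 6031 in Res-T without trauma, which was a fall (log2 −1.08 ± 0.17, adjusted p = 0.00497), and its effects differed by 2.09 ± 0.25 (adjusted p = 0.000967). Mef2c had 466, 363, 359 and 298 in Res-T with trauma, against 90.2, 98.8 and 216 in Res-T without, where it rose (log2 1.55 ± 0.26, adjusted p = 0.006), and its effects differed by −2.63 ± 0.40 (adjusted p = 0.00265). Snap91 rose in Res-T (log2 0.81, adjusted p = 0.01) and its effects differed by −1.47 ± 0.23 (adjusted p = 0.00329). Dlgap1 rose there too (log2 1.23, adjusted p = 0.006; difference of effects −1.82 ± 0.31, adjusted p = 0.00463), as did Bsn (log2 1.59, adjusted p = 0.0117; difference −2.27 ± 0.50, adjusted p = 0.0129) and Camk2a (log2 2.70, adjusted p = 0.01; difference −3.10 ± 0.73, adjusted p = 0.0236). For the synaptic scaffold list 10 of 24 members rose in Res-T (median 0.67), against 3.3% of all genes, and the difference was called lower for 10, against 1.98% of all genes, and for 1 without either library of Sus-T without trauma. It was called for 2 members with moderation without trend or robust weights and for 0 with the oligodendrocyte mean as a covariate. For cytosolic ribosomal proteins 57 of 68 rose in Res-T (median 1.07) and the difference was called lower for 24, with the same shares of all genes. That count was 0 without either library of Sus-T without trauma, 0 without trend or robust weights, 0 with the covariate and 46 with the libraries scaled to the same total. Markers of pyramidal neurons and astrocytes had larger shares with trauma in Res-T. The 8 pyramidal neuron markers made up 0.0805%, 0.0971%, 0.0808% and 0.0944% of the library in Res-T with trauma, against 0.0416%, 0.0503% and 0.0470% in Res-T without trauma. Of these 8 markers 3 rose, against 3.3% of all genes. The astrocyte markers made up 1.53% ± 0.31 in Res-T with trauma (SD, n = 4) and 0.991% ± 0.11 in Res-T without trauma (SD, n = 3). Their part in the difference of effects was not tested. For Gm28635, by contrast, the effects were −5.66 in Sus-T and −4.88 in Res-T and their difference was −0.78 ± 0.84 (adjusted p = 0.627). Leaving out 1 library in turn gave between 59 and 810 calls of the difference over all genes, with 59 without replicate 1 of Sus-T without trauma and 340, 340 and 379 without replicates 1, 2 and 3 of Res-T without trauma. The Res-T count was 101, 142 and 163 without those 3 Res-T libraries and 322 without replicate 3 of Res-T with trauma.

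**Figure D3:**
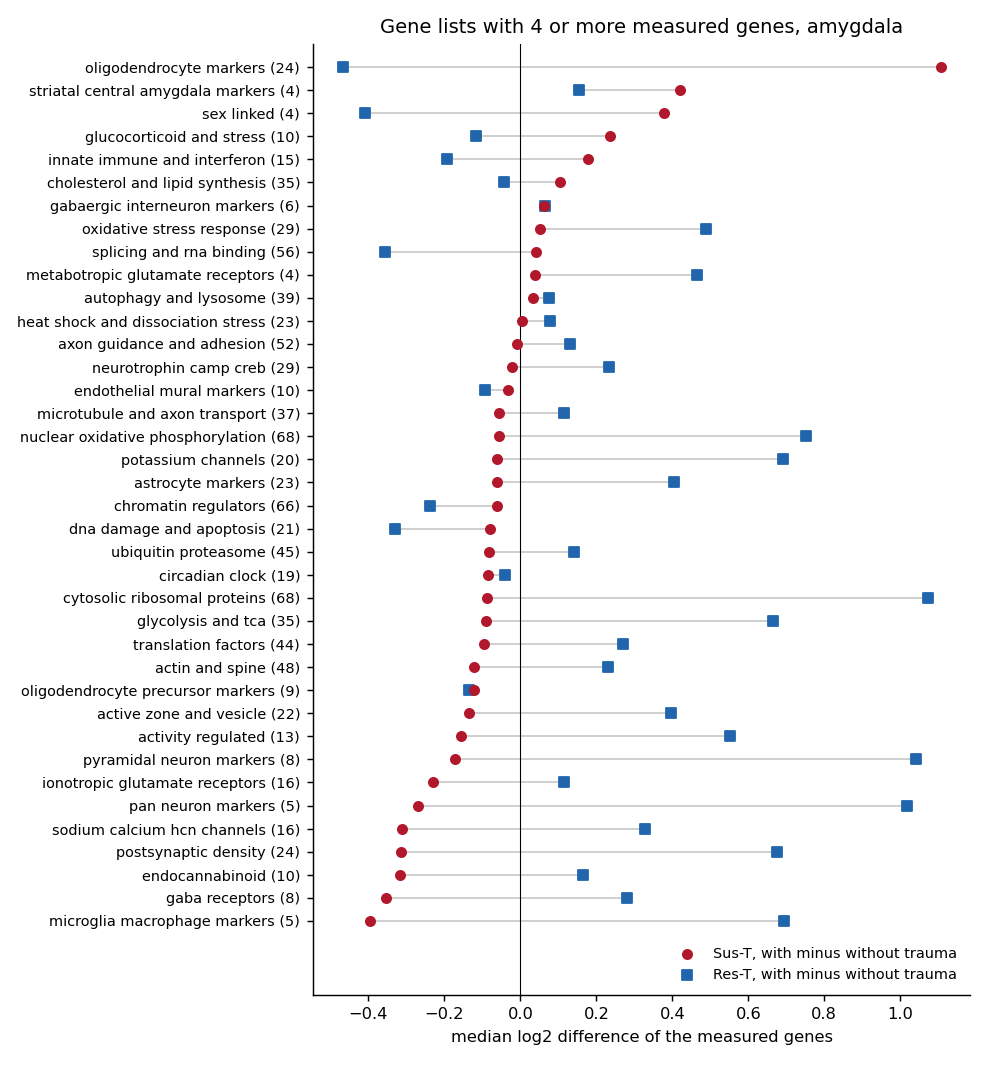
Median log2 difference with minus without trauma over the measured genes of each list with 4 or more of them, in Sus-T amygdala (red circles) and Res-T amygdala (blue squares), with the number of genes in brackets. The oligodendrocyte markers have the highest median in Sus-T, 1.11, against −0.47 in Res-T, and the lowest Sus-T median is that of the microglia markers, −0.40.

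In Sus-T prefrontal cortex the contrast called 0 of 6080 genes in limma, and at an unadjusted p under 0.05 it had 49 genes higher, or 0.806%, and 42 lower, or 0.691%. Of the oligodendrocyte markers 16 also had prefrontal values, and their median log2 difference was −0.02, from −0.37 to 0.78, with 0 at an unadjusted p under 0.05. The 17 markers of the prefrontal table made up 3.01%, 3.23%, 3.07% and 5.04% of the library with trauma, against 4.19% and 2.86% without, and these overlapped. Mal had 3337, 3554, 3140 and 6425 with trauma, against 6250 and 2722 without. Mef2c had 1030, 1218, 1135 and 1608 with trauma, against 1101 and 784 without (log2 0.40). The regions were normalized separately, so no test was made between them.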

How the data were processed

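RNA-seq of cells sorted from amygdala or prefrontal cortex of Thy1-YFP mice was deposited as 1 table per comparison, with 13 libraries in each region. The deposited values are a normalized gene-level signal made by the authors by a method that is not given in the sources used here. Per the submitters' processing notes bcl2fastq 2.20, Salmon 1.2 and the build GRCm38.p6 were used. A library's values were identical in every table of the authors that holds it. The sequencing depth is unknown, no value was 0, and no interval for counting error could be given. Since the deposited values are not counts, no count model was used.

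Values were tested as log2(value + 1) with limma 3.58.1 in R 4.3.3, with trend and robust moderation, in 1 fit of 4 groups over the 13 amygdala libraries with adjusted p by Benjamini and Hochberg over all genes and a threshold of 0.05. A fold change is on the log2(value + 1) scale and understates that of low genes. A filter on a mean of at least 1 removed 0 genes. The fit assumes independent libraries. After each gene was centred, log2(value − 1) held 11 dimensions with variance over 13 libraries, where 12 are possible, so the spread and the p-values may be too small. Replicate numbers were not taken as pairs. The prefrontal libraries were fitted in the same way apart from the amygdala. The limma fit was tested on simulated data with independent libraries, where the check was of the size and sign of known log2 changes. Libraries that share an animal and a missing dimension were not simulated.

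Genes were named by rule. It took the 12 smallest p values past the threshold in each direction, or the 6 smallest where fewer passed, the 5 largest differences in each direction among genes with a mean of at least 50 and groups without overlap, the members with the smallest p of each list, and a set of preselected genes. The oligodendrocyte markers were chosen as a list, and the markers beyond that rule are named as such. Some genes of the lists are counted there and are not reported here by name. The members, the lists and the rule were chosen with earlier results of these data known. Lists are described by counts and medians, with no test of the list. Of 9872 gene identifiers 9871 matched GENCODE M21, on GRCm38.p6, and promoters are from RefSeq on that build. Alternatives were another pseudocount, scaling, filter, moderation, replicate block, sample set, a covariate and leaving out 1 library at a time. The count of oligodendrocyte markers with a difference between phenotypes was recomputed as an alternative added after seeing the data.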

Additional observations from a re-analysis of the deposited data

Results flagged for a closer look

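Within the 4 libraries of Sus-T amygdala with trauma, single libraries stood apart from the other 3 by Dixon's ratio, which chance gives in about 1 group in 20. In replicate 1 the lipid synthesis list made up 1.34% of the library and mt-Nd6 stood at 6206. In replicate 2 Sec14l5 stood at 1622, Pdia4 at 551 and Srsf2 at 839. In replicate 3 Snhg11 stood at 1086, with the long noncoding list at 0.0323%, and Chrna4 at 44.3, with the monoamine and acetylcholine list at 0.00132%. The long noncoding list and the monoamine and acetylcholine list each had 1 measured gene, so each share repeats that gene. The lipid synthesis list had 35.

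The trauma effect on the log2 scale, Sus-T minus Res-T, passed limma's test of the difference (adjusted p between 3.1e-09 and 0.0462) for the following genes, which also stand in the report. Of the oligodendrocyte lineage, it was 1.69 for Apod, 1.81 for Mal, 1.98 for Gjc3, 1.91 for Ermn, 2.66 for Enpp6, 1.87 for Tspan2, 1.5 for Cldn11, 2.15 for Aspa, 1.99 for Opalin, 1.78 for Mog, 2.01 for Myrf, 1.29 for Fa2h, 1.68 for Cnp, 1.73 for Sox10, 1.37 for Trf, 1.39 for Ugt8a, 1.79 for Mag and 1.58 for Ppp1r14a. Of the other genes with a higher effect in Sus-T, it was 7.52 for the Zc3h11a model ENSMUSG00000116275.1, 1.82 for Ypel2, 1.99 for Trim59, 1.97 for Enpp4, 2.09 for Ccp110, 2.21 for Efnb3, 2.11 for Unc5c, 1.93 for Kat2b, 3.51 for Taf7, 4.51 for Sec14l5, 4.0 for Rffl, 1.39 for Gria4, 1.26 for Stmn4, 0.97 for Ddx3y, 1.78 for Gss, 1.17 for Npc1 and 1.01 for Kcna6. Of the genes with a lower effect in Sus-T, it was −1.23 for Madd, −1.47 for Snap91, −4.38 for Mrc2, −2.63 for Mef2c, −2.07 for Rnf217, −1.46 for Ndufv2, −1.76 for Dagla, −1.82 for Dlgap1, −2.27 for Bsn and −3.10 for Camk2a. Many of the genes listed for the difference were named for their Sus-T contrast. That contrast is part of the difference, so the choice favours a pass. The Zc3h11a model overlaps another model on the same strand, so its value is uncertain.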

How the results depend on the processing

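The count of 3 genes for trauma in Sus-T amygdala was 18 with a pseudocount of 10, 28 after quantile normalization, 16 with libraries scaled to the same total, 22 with a mean of at least 50 and 1 with the mean of the oligodendrocyte markers as a covariate, and it lay between 1 and 287 with 1 library left out. It was 2 with moderation without trend or robust weights, in the fit on 2 groups alone and without the Res-T group without trauma. The difference of effects, 665 genes, was 366 without trend or robust weights and 2 with the covariate, and between 59 and 810 with 1 library left out. The Res-T count, 610, was 339 without trend or robust weights and between 101 and 708 with 1 library left out. The prefrontal count was between 0 and 3 with 1 library left out, and 0 in limma under the other alternatives. The 21 oligodendrocyte markers at an unadjusted p under 0.05 numbered between 10 and 23 with 1 library left out, and their median of 1.11 lay between 0.71 and 1.52. The 18 markers called for the difference numbered 11 without trend or robust weights and between 2 and 19 with 1 library left out. The covariate is made of the oligodendrocyte markers and was not applied to them. Its values did not overlap between Sus-T with and without trauma, so lost calls and turned signs with it are hard to read. Leaving out a library of a pair assumes that the lone library varies like the other groups.

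With the covariate the log2 difference turned its sign to −0.10 for Kat2b, −0.26 for Sec14l5, −0.58 for Rffl, −0.24 for Pdia4, −0.59 for Srp54b, −0.79 for Kdr, −0.24 for Gss, −0.17 for Npc1, −0.45 for Foxj1, −0.57 for Grin2b, 0.062 for the Zc3h11a model ENSMUSG00000102976.6, 0.67 for Nes, 0.49 for Myo1c, 0.18 for Tubb6, 0.71 for Dlx1, 0.21 for Chrna4 and 0.21 for mt-Nd6. Grin2b was −0.012 after quantile normalization and −0.052 with the same total. With 1 library left out Camk2a lay between −0.82 and 0.020, Snhg11 between −0.27 and 0.82, mt-Nd6 between −0.52 and 0.078 and Grin2b between −0.37 and 0.29. Over the named genes and alternatives 1274 values kept their direction and side of the threshold, 68 passed it newly, 10 lost it and 26 turned. The cause of these shifts was not tested. Only 3 of the 88 named gene models were called in the main fit, so most of the 1274 values are of genes that stayed uncalled. The setting without a filter repeats the main fit, since the filter removed 0 genes. With the replicate number as a block, 2 genes were called in Sus-T, with Apod at an adjusted p of 0.0552, and 463 for the difference, but deviations of libraries with the same number correlated at 0.109 and −0.19, so the numbers are not taken as pairs.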
